A study of Mus musculus with 10 samples.

Results

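The genes carried by the mouse mitochondrial genome were examined in P14 lungs after an increase in pulmonary blood flow. The members were all rows of the deposited gene table placed on chromosome MT. They numbered 37 of 54532 genes, and the biotype column divided them into 13 mRNAs, 2 rRNAs and 22 tRNAs. All 37 had the coordinates of the GENCODE M21 annotation on GRCm38, and each gene lies on the mitochondrial chromosome without introns.

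Whole lungs were compared by bulk RNA-sequencing in wild-type mice, which the methods name as C57/BL6. In the IncPBF group (increased pulmonary blood flow), pups underwent surgery at P7 in which a nylon suture needle was passed from the abdominal aorta into the inferior vena cava, leaving a fistula between them. The sham group received the same operation at the same age without the puncture. Both groups were sampled at P14, with 5 lungs per group, and the sources used here give neither litter nor date of surgery for a lung. The fistula adds a volume load to the whole circulation, and the operation, anaesthesia and laparotomy were common to both groups. Nothing in the labels says whether the lungs came from separate litters, so the p-values measure the spread between these 10 lungs.

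Total fragments on genes ran from 16103423 to 20318525 in IncPBF lungs (median 17900605) and from 18171494 to 19400575 in sham lungs (median 18262206). Xist, the RNA that silences one X chromosome in females, reached 52.4 to 66.5 FPKM (fragments on a gene, scaled to its length and to the depth of the library) in IncPBF lungs 2 to 5, while IncPBF lung 1 (0.0144 FPKM) and all sham lungs (0.0770 FPKM or less) had almost none. Ddx3y, a gene of the Y chromosome, showed the reverse, with 18.6 FPKM for IncPBF lung 1, at least 21.9 FPKM for sham and 0.00926 FPKM or less for the remaining IncPBF lungs. Sex-linked expression therefore separated the groups apart from IncPBF lung 1, and the values of that lung are given below wherever per-lung values are printed. For every gene below, called or not, a difference between the surgery groups cannot be told apart from a difference by sex. A single lung does not settle this. The markers of the lung were present, with a summed level of the 9 lung markers of 15597.5 to 26186 FPKM per lung. Sham lung 5 stood apart in an airway marker, with Scgb1a1, the secretory protein of club cells, at 128.5 FPKM against at least 4802 FPKM in any other lung. Its part in the mitochondrial values was not tested, and results without this lung are given with them. In bulk tissue, fewer cells of a type and less RNA per cell cannot be told apart, and the same holds for mitochondrial content.

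Mitochondria keep a small circular genome that is read from both strands as long precursor RNAs. The tRNAs lie between the other genes, and their excision frees the mRNAs and rRNAs. The mRNAs encode subunits of the respiratory chain and of ATP synthase, the machinery of oxidative phosphorylation, and the rRNAs and tRNAs translate them inside the organelle. All other subunits, and the proteins that transcribe, process and translate mitochondrial RNA, are encoded in the nucleus. Fragments of mitochondrial DNA have also been inserted into the nuclear chromosomes, where they persist as pseudogenes.

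One such insertion shares most of its sequence with several members, and it was described first because it bears on which fragments can be assigned to a mitochondrial gene. On chromosome 1 of GRCm38, minus strand, 7 annotated pseudogenes followed each other in the order of the mitochondrial genes between chr1:24611535-24616197. They matched the last part of mt-Co1, then mt-Co2, mt-Atp6, mt-Co3, mt-Nd3 and mt-Nd4l nearly whole, and the first part of mt-Nd4. Over 4149 aligned bases there were 7 mismatches, and identity ran from 98.8% to 100% per copy. The copy of the short mt-Nd3 (MT:9459-9806, plus strand) is Gm28438 (chr1:24612775-24613119, minus strand). Their first 150 bases (MT:9459-9608 and chr1:24612970-24613119) are printed to show how close the copies are, with the single differing base of the whole alignment in capitals. It was T3C, counted from the 5′ end of mt-Nd3, with the base of the gene first. The sequences are those of the GENCODE M21 transcripts on GRCm38.
mt-Nd3: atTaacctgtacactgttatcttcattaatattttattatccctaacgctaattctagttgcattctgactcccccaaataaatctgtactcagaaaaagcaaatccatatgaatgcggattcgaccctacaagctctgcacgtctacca
Gm28438: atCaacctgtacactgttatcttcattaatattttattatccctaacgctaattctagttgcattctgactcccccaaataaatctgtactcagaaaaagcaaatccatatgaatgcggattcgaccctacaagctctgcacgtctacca

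The other mismatches were in the copy of mt-Co1. Gm29216 (chr1:24615706-24616197, minus strand) aligned with bases 1054 to 1545 of mt-Co1, and its 6 differences fell at the start of that stretch (T1056A, C1057T, A1059G, A1060G, C1062A and A1066T, counted from the 5′ end of mt-Co1). The first 60 bases of the shared stretch are shown for mt-Co1 (MT:6381-6440, plus strand) and for the copy (chr1:24616138-24616197, minus strand), with the differing bases in capitals, to mark where a fragment could still be told apart.
mt-Co1: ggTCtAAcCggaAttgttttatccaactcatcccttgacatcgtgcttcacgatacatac
Gm29216: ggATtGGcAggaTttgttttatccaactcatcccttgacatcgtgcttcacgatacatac

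Among the 12 mRNAs above the floor of 3 fragments, genes copied nearly whole stood far below those without copies. When each gene was cut into all its windows of 100 bases, 97.6% to 99.85% of the windows of mt-Co2, mt-Atp6, mt-Co3, mt-Nd3 and mt-Nd4l also occurred in another annotated gene. These 5 mRNAs were at 9.94 to 80.1 FPKM in sham lungs and at 17.2 to 159.6 FPKM in IncPBF lungs. Of these 12, the mRNAs with at most 3.20% of their windows shared were mt-Nd1, mt-Nd2, mt-Nd5, mt-Nd6 and mt-Cytb, and they were at 493 to 2557 FPKM in sham lungs and at 622 to 3213 FPKM in IncPBF lungs. In mt-Co1 30.8% and in mt-Nd4 60.8% of the windows were shared, and these were at 658 to 5092 FPKM in sham lungs. The remaining mRNA, mt-Atp8, had 0% of its windows in another annotated gene and was the lowest, with 0 to 3 fragments per lung. Sequence outside annotated genes was not searched. The sources used here do not state how fragments that match more than 1 place were counted. The levels of the 5 copied genes are therefore uncertain, as are those of the partly copied mt-Co1 and mt-Nd4. How the copies affect these levels was not tested.

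**Figure D1:**
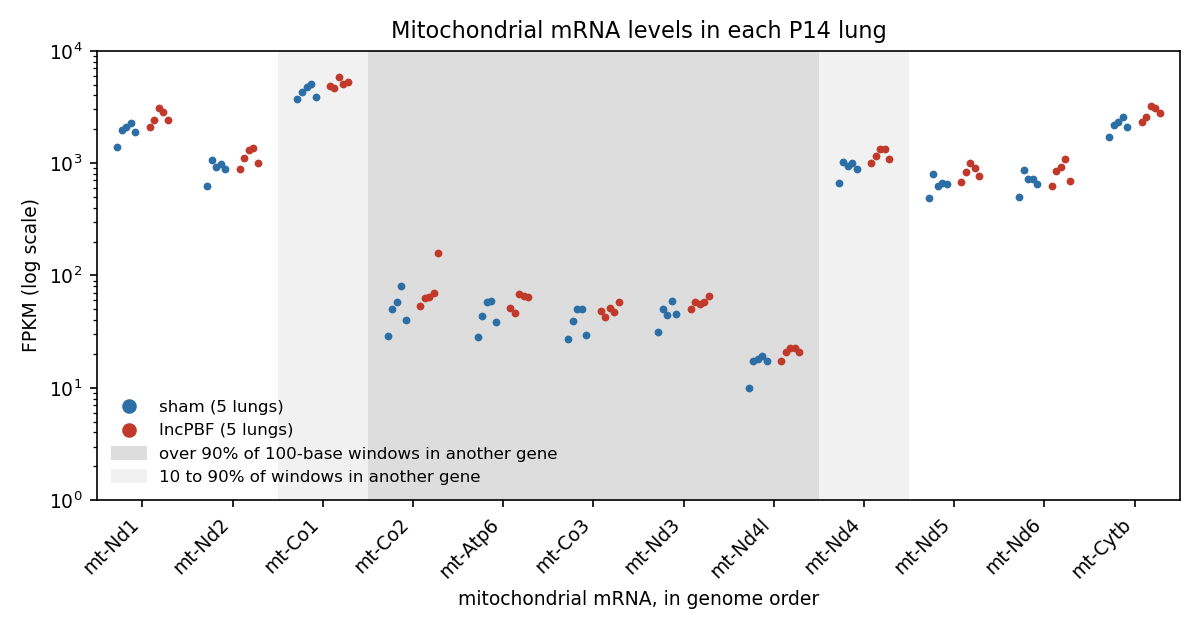
FPKM on a log scale of the 12 mitochondrial mRNAs above the floor, in genome order, with 1 point per lung (sham blue, IncPBF red) and grey shading where 100-base windows recur in another annotated gene. The 5 darkly shaded genes lie between 9.94 and 159.6 FPKM, and the unshaded genes between 493 and 3213 FPKM.

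The copies themselves were counted at levels close to those of the copied genes. In the sham lungs the median level was 34.1 FPKM for Gm28661, the copy of mt-Co2, 43.2 FPKM for Gm10925, the copy of mt-Atp6, and 38.5 FPKM for Gm28437, the copy of mt-Co3. The median ratio of the gene to its copy over the 10 lungs was 1.47 for mt-Co2, 1.17 for mt-Atp6, 1.07 for mt-Co3 and 1.51 for mt-Nd4l. For mt-Nd3, whose copy has 1 mismatch, it was 5.28, and the part of the mismatch in this was not tested. For the partly copied genes it was 105 for mt-Co1 and 66.3 for mt-Nd4. All 7 copies had a positive log2 fold change between IncPBF and sham lungs (0.20 to 0.58), beside 52.1% of all genes tested. The test described below called 16.1% of all genes higher and 2 of the 7 copies, Gm29216 (0.58, SE 0.19, limma adjusted p = 0.0347) and Gm10925 (0.54, SE 0.17, limma adjusted p = 0.0334).

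**Figure D2:**
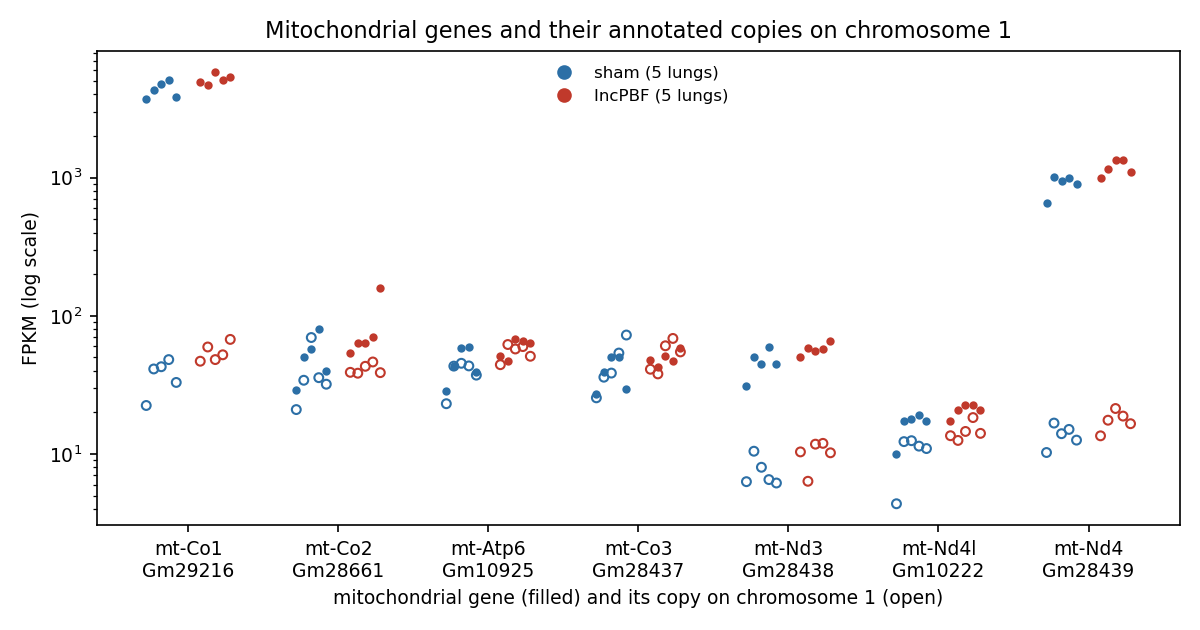
FPKM on a log scale of 7 mitochondrial genes (filled points) and of the annotated copy of each on chromosome 1 (open points), 1 point per lung, sham blue and IncPBF red. Gene and copy are close for mt-Co2, mt-Atp6, mt-Co3 and mt-Nd4l (median ratios 1.07 to 1.51) and far apart for mt-Co1 and mt-Nd4 (105 and 66.3).

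The lungs differed in the share of fragments that fell on the mitochondrial genome. In IncPBF lungs 1 to 5 the 37 genes took 1.77%, 1.88%, 2.29%, 2.18% and 1.92% of all fragments on genes, and in sham lungs 1 to 5 they took 1.20%, 1.57%, 1.70%, 1.80% and 1.39%. The lowest IncPBF lung, number 1, lay below the highest sham lung, number 4, so the groups overlapped. The mean share was 2.01% ± 0.218 (SD, n = 5) in the IncPBF group and 1.53% ± 0.242 (SD, n = 5) in the sham group, a difference of 0.475 percentage points. No test was made on this sum over the members. Leaving out any 1 lung gave differences of 0.392 to 0.543 percentage points, with 0.440 when sham lung 5 was left out.

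Nearly all of these fragments were on mRNAs. The mRNAs took 1.72% to 2.22% of fragments in IncPBF lungs and 1.16% to 1.74% in sham lungs. The rRNAs took 0.0481% to 0.0620% and 0.0389% to 0.0566%, and the tRNAs 0.00479% to 0.00615% and 0.00240% to 0.00467%. Of the mitochondrial fragments of all 10 lungs, 42.4% were on mt-Co1, 16.5% on mt-Cytb, 12.5% on mt-Nd1 and 2.04% on mt-Rnr2, the large rRNA. The tRNA fragments numbered 782 to 1086 per IncPBF lung and 438 to 877 per sham lung.

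Per kilobase, mt-Co1 was the highest mRNA in both groups, with a median of 4298 FPKM in sham lungs and 5067 FPKM in IncPBF lungs. It encodes the catalytic subunit of cytochrome c oxidase (complex IV). mt-Cytb, the cytochrome b of complex III, followed at a sham median of 2196 FPKM, and mt-Nd1, a membrane subunit of complex I, at 1979 FPKM. The ranges of mt-Cytb and mt-Nd1 overlapped, and both stood apart from mt-Co1 above and mt-Nd4 (950 FPKM) below. mt-Nd4, mt-Nd2 (916 FPKM), mt-Nd6 (718 FPKM) and mt-Nd5 (654 FPKM), further subunits of complex I, formed a group in which neighbours overlapped. The copied genes followed after a gap, from mt-Co2 (50.3 FPKM) through mt-Nd3 (45.1 FPKM), mt-Atp6 (43.3 FPKM) and mt-Co3 (39.0 FPKM) to mt-Nd4l (17.3 FPKM). The order in IncPBF lungs was the same except that mt-Atp6 (63.9 FPKM) stood above mt-Co2 (63.6 FPKM) and mt-Nd3 (58.0 FPKM), with overlapping ranges.

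Genes with a mean of at least 0.5 FPKM, 15388 in all, were compared between the groups on log2(FPKM + 0.1) with limma, with p-values adjusted over all of them by the Benjamini-Hochberg method and called below 0.05. Fold changes are on that scale. Of the 13 mitochondrial mRNAs 12 were tested, 1 was called higher and 0 lower. Among all genes tested, 16.1% were called higher and 16.2% lower. The log2 fold change was above 0 for 12 of 12 mRNAs (52.1% of all genes), with a median of 0.37 and a range of 0.25 to 0.63, beside a median of 0.01 over all genes tested. At an unadjusted p under 0.05, 7 of the 12 passed (21.7% of all genes, higher). In no mRNA were the groups without overlap, against 12.0% of all genes higher without overlap and 23.2% in either direction.

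The mRNA called was mt-Nd4 (MT:10167-11544), which encodes a proton-pumping membrane subunit of complex I. Its call does not set it apart, since mt-Nd1, which was not called, had a larger log2 fold change (0.43). mt-Nd4 was the only call among the mRNAs, whose share called was not above that of all genes. mt-Nd4 was at 999, 1145, 1335, 1343 and 1094 FPKM in IncPBF lungs 1 to 5 and at 658, 1013, 950, 999 and 892 FPKM in sham lungs 1 to 5. Sham lung 1 was far below the rest, IncPBF lungs 3 and 4 were highest, and IncPBF lung 1 lay within the sham range. The means were 1183 ± 152 and 902.5 ± 145 FPKM (SD, n = 5 each), and the log2 fold change was 0.40 (SE 0.14, limma adjusted p = 0.0439). The call was lost when any of IncPBF lungs 2 to 5 or sham lungs 1 or 5 was left out (limma adjusted p = 0.0579 to 0.103). When Xist (log2 FPKM) entered the fit as a covariate, the log2 fold change of mt-Nd4 was 0.15 (limma adjusted p = 0.748). Xist was high in IncPBF lungs 2 to 5 alone, so in this fit the group difference rests almost wholly on IncPBF lung 1 against the sham lungs, and a lost call there does not show that a gene did not differ.

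The other 6 subunits of complex I had log2 fold changes of 0.27 to 0.43 and did not pass. mt-Nd1 (MT:2751-3707) was at 2114, 2439, 3100, 2877 and 2396 FPKM in IncPBF lungs 1 to 5 and at 1385, 1979, 2104, 2267 and 1886 FPKM in sham lungs. IncPBF lung 1 again lay among the sham lungs, and sham lung 1 was lowest. On the log2 scale mt-Nd1 differed by 0.43 (SE 0.16, limma adjusted p = 0.0554). mt-Nd5 (MT:11742-13565), another proton-pumping subunit, was at 676 to 995 FPKM in IncPBF lungs and 493 to 801 FPKM in sham lungs (0.37, SE 0.14, limma adjusted p = 0.0605). mt-Nd2, a further pumping subunit, was at 895 to 1367 and 629 to 1064 FPKM (0.35, SE 0.16, limma adjusted p = 0.115). mt-Nd3, a small membrane subunit, was at 50.7 to 65.3 and 31.2 to 59.7 FPKM (0.34, SE 0.14, limma adjusted p = 0.0907). mt-Nd4l was at 17.2 to 22.6 and 9.94 to 19.2 FPKM (0.38, SE 0.16, limma adjusted p = 0.0943). In each of these genes the ranges overlapped.

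mt-Nd6 (MT:13552-14070) is the mRNA that lies on the minus strand, whereas the other 12 lie on the plus strand. It was at 622, 842, 925, 1079 and 698 FPKM in IncPBF lungs 1 to 5 and at 496, 870, 718, 721 and 650 FPKM in sham lungs 1 to 5. IncPBF lungs 1, 2 and 5 lay within the sham range, and the log2 fold change was 0.27 (SE 0.17, limma adjusted p = 0.27). It shares 14 bases with mt-Nd5 on the opposite strand. Whether counting used the strand is not given in the sources used here, so the RNA of mt-Nd6 and RNA from the opposite strand at its position cannot be told apart.

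In complex III, mt-Cytb (MT:14145-15288) was at 2325, 2589, 3213, 3085 and 2788 FPKM in IncPBF lungs 1 to 5 and at 1717, 2196, 2336, 2557 and 2116 FPKM in sham lungs 1 to 5. Sham lungs 3 and 4 were above IncPBF lung 1, the lowest of its group. The log2 fold change of 0.36 (SE 0.14, limma adjusted p = 0.0676) did not pass.

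Among the 3 subunits of complex IV, mt-Co1 (MT:5328-6872) was at 4889, 4666, 5781, 5067 and 5308 FPKM in IncPBF lungs 1 to 5 and at 3689, 4298, 4740, 5092 and 3854 FPKM in sham lungs 1 to 5. Sham lungs 3 and 4 lay within the IncPBF range, and the log2 fold change was 0.25 (SE 0.14, limma adjusted p = 0.19), the lowest of the 12 mRNAs. mt-Co2 (MT:7013-7696), which accepts electrons from cytochrome c, was at 53.7, 63.5, 63.6, 69.7 and 159.6 FPKM in IncPBF lungs and at 28.9, 50.3, 57.9, 80.1 and 39.8 FPKM in sham lungs. IncPBF lung 5 was at more than any other lung. Its copy Gm28661 was at 38.8 FPKM in the same lung, near the other IncPBF lungs. The log2 fold change of mt-Co2 was 0.63 (SE 0.32, limma adjusted p = 0.149), and without IncPBF lung 5 it was 0.36 (limma adjusted p = 0.291). mt-Co3 was at 42.8 to 58.4 and 27.2 to 50.4 FPKM (0.37, SE 0.17, limma adjusted p = 0.123).

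Of ATP synthase (complex V), mt-Atp6, the membrane subunit through which protons pass, was at 46.7 to 68.4 FPKM in IncPBF lungs and 28.3 to 59.2 FPKM in sham lungs (0.41, SE 0.19, limma adjusted p = 0.127). mt-Atp8, a small membrane subunit, held 0 to 3 fragments in every lung and was not tested. Its floor of 3 fragments equals 0.708 to 0.852 FPKM. The last 43 of its bases (MT:7927-7969) are also the first bases of mt-Atp6. These bases are shown in capitals in the 3′ end of the gene (MT:7910-7969, plus strand), because a fragment there belongs to both genes.
mt-Atp8: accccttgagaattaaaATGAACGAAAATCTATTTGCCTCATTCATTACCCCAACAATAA

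The position of mt-Atp8 between mt-Co2 and mt-Atp6 has a counterpart on chromosome 1, where 233 bases separate Gm28661 from Gm10925, as many as lie between the stretches of mt-Co2 and mt-Atp6 that align with them. No gene was annotated there, and those bases were not examined here.

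**Figure D3:**
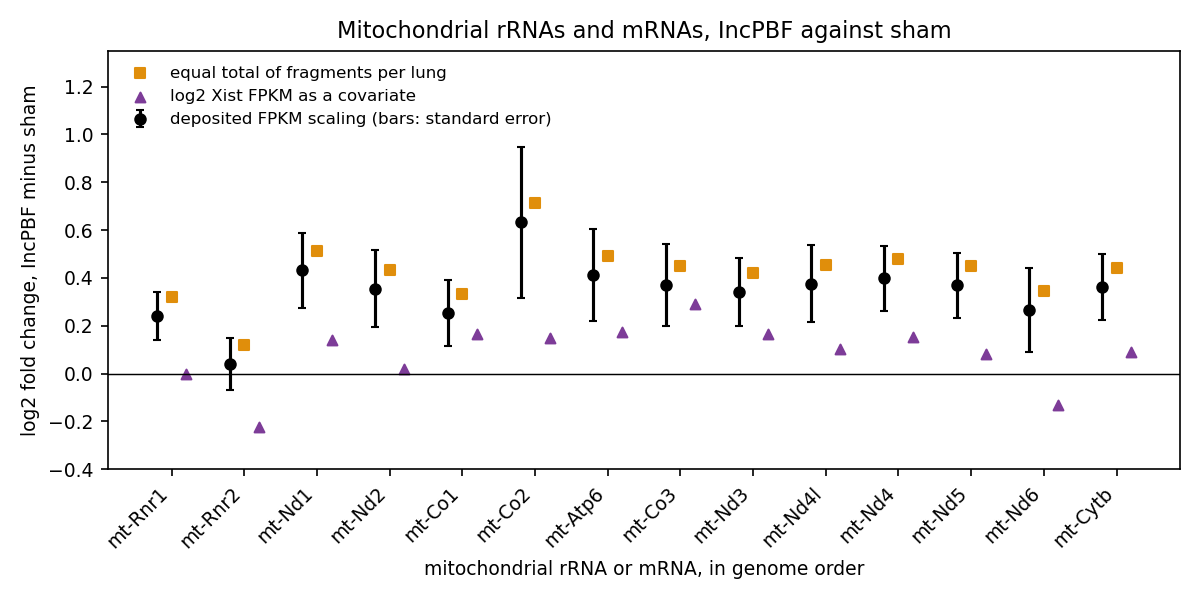
Log2 fold change, IncPBF minus sham, of 2 rRNAs and 12 mRNAs in genome order, from the deposited FPKM (black, with standard error), after scaling each lung to an equal total of fragments (orange squares) and with log2 Xist FPKM as a covariate (purple triangles). With the deposited scaling all 14 lie above 0, from 0.04 to 0.63, and with the covariate mt-Nd6 and both rRNAs lie below 0.

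The same lungs were low or high in most mRNAs. Sham lung 1 was the lowest of all 10 lungs in 12 of 12 mRNAs, and the highest value was in IncPBF lung 3 for 6 mRNAs, in lung 4 for 3 and in lung 5 for 3. Without sham lung 1 the median log2 fold change was 0.25, with 0 mRNAs called and 12 of 12 above 0. Without sham lung 5 it was 0.36, also with 0 called and 12 of 12 above 0. The shares of all genes called without these lungs are not given here. With log2 Xist FPKM as a covariate the median was 0.14, with 0 called (2.13% of all genes, higher) and 11 of 12 above 0. In that fit mt-Nd6 was at -0.13. The total of fragments on genes was not what the deposited FPKM were scaled to, and with equal totals 5 mRNAs were called (mt-Cytb, mt-Nd1, mt-Nd3, mt-Nd4 and mt-Nd5), beside 23.1% of all genes.

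The proportions of the mRNAs were also compared within each lung. mt-Co1 made up 34.6% to 40.1% of the summed FPKM of the mRNAs in sham lungs (median 37.6%) and 31.7% to 38.4% in IncPBF lungs (median 34.1%). mt-Cytb made up 17.7% to 19.1% and 18.2% to 19.3%, and mt-Nd1 15.1% to 16.97% and 16.6% to 18.3%. For all 13 mRNAs the proportions of the groups overlapped. These proportions do not depend on the scaling between lungs, and mt-Co2 in IncPBF lung 5 reached 1.11% against at most 0.591% in any sham lung.

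The rRNAs are the scaffold of the mitochondrial ribosome. mt-Rnr1 (MT:70-1024), the RNA of the small subunit, was at 164, 196, 207, 203 and 199 FPKM in IncPBF lungs 1 to 5 and at 134, 161, 170, 197 and 162 FPKM in sham lungs 1 to 5. IncPBF lung 1 and sham lung 4 each lay among the other group. The log2 fold change was 0.24 (SE 0.10, limma adjusted p = 0.0891). mt-Rnr2 (MT:1094-2675), the RNA of the large subunit, was at 188, 229, 249.7, 239.7 and 222 FPKM in IncPBF lungs and at 169, 224, 239, 232 and 238 FPKM in sham lungs. The groups were interleaved, and the log2 fold change was 0.04 (SE 0.11, limma adjusted p = 0.814). Of the 2 rRNAs 0 were called (16.1% of all genes were called higher), and 1 had an unadjusted p under 0.05 (21.7% of all genes, higher). Without IncPBF lung 1 or without sham lung 4, mt-Rnr1 passed (0.30 and 0.31, limma adjusted p = 0.0446 and 0.0274). Both rRNAs were below mt-Nd1 in every lung. Whether rRNA was removed before sequencing is not given in the sources used here.

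The tRNAs ranged from 0 to 355 fragments per lung and are given by fragments, since a single fragment on so short a gene is worth much FPKM. Of the 22 tRNAs, 8 had 3 fragments or fewer in every lung of at least 1 group and 14 were above that in both groups. mt-Tf, mt-Ts1 and mt-Td held 0 fragments in all 10 lungs, which at 3 fragments allows up to 2.56, 2.52 and 2.48 FPKM. mt-Tk held at most 1, in sham lungs alone, and mt-Tv at most 3, in IncPBF lungs alone. mt-Ti and mt-Ta held at most 5, mt-Tm at most 7 and mt-Tq at most 10.

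The tRNAs with at least 100 fragments in some lung were mt-Tp, mt-Tc, mt-Te and mt-Tl2, of which 3 lie on the minus strand, as do 8 of the 22. They are shown with the anticodon in capitals, together with mt-Th, which passed the test, and mt-Tt, which held fragments in every IncPBF lung and in no sham lung. mt-Tp lies at MT:15356-15422, mt-Tc at MT:5192-5257 and mt-Te at MT:14071-14139 on the minus strand. mt-Tl2 lies at MT:11671-11741, mt-Th at MT:11546-11612 and mt-Tt at MT:15289-15355 on the plus strand.
mt-Tp: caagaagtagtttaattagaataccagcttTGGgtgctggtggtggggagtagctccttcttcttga
mt-Tc: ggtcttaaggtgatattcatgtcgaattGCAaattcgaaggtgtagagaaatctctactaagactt
mt-Te: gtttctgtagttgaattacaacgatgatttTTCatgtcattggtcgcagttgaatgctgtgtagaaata
mt-Tl2: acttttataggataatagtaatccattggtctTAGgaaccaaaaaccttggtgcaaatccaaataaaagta
mt-Th: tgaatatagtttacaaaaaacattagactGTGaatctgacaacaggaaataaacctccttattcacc
mt-Tt: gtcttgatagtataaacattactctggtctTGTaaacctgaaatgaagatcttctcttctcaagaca

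mt-Tp, which carries proline, was the most abundant. It held 350, 314, 348, 283 and 355 fragments in IncPBF lungs 1 to 5 and 180, 278, 312, 352 and 235 in sham lungs 1 to 5. Sham lung 4 was second only to IncPBF lung 5, and the log2 fold change was 0.28 (SE 0.14, limma adjusted p = 0.145). mt-Tc, which carries cysteine, held 118, 123, 133, 92 and 171 fragments in IncPBF lungs and 40, 92, 104, 121 and 41 in sham lungs. Sham lungs 1 and 5 were far below the rest, and the log2 fold change was 0.76 (SE 0.29, limma adjusted p = 0.0615). mt-Te, for glutamate, held 96 to 153 and 36 to 126 fragments (0.37, SE 0.30, limma adjusted p = 0.374). mt-Tl2, for leucine, held 58 to 109 and 53 to 72 fragments (0.32, SE 0.18, limma adjusted p = 0.199).

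Of the 14 tRNAs above the floor, 1 was called higher and 0 lower. No group pair was without overlap, against 12.0% of all genes higher without overlap and 23.2% in either direction. All 14 passed the filter on low values, and among all genes tested 16.1% were called higher and 16.2% lower. The tRNA called, mt-Th, which carries histidine, held 49, 24, 40, 26 and 27 fragments in IncPBF lungs 1 to 5 and 15, 22, 19, 30 and 19 in sham lungs 1 to 5. IncPBF lungs 1 and 3 were highest and sham lung 4 was above 3 of the IncPBF lungs. It rose by a log2 fold change of 0.60 (SE 0.21, limma adjusted p = 0.0495). The call was kept without IncPBF lung 2 or 5 or sham lung 4 and lost without any other lung. With 1 lung left out the limma adjusted p ran from 0.0222 to 0.115. The call was also lost with a pseudocount of 0.01, no filter on low values, no variance trend, lung number as a block, or limma-voom on fragments. In the fit that included Xist mt-Th was at 1.15 and was not called (limma adjusted p = 0.0665). mt-Tt, which carries threonine, held 2, 1, 2, 2 and 2 fragments in IncPBF lungs and 0 in every sham lung. Both groups were at or under 3 fragments per lung and the gene passed the filter on low values through IncPBF lungs alone, so no fold is given and its test (limma adjusted p = 1.55e-05) is not read as a change. mt-Tp and mt-Tt lie next to each other on opposite strands, and counting by strand is not stated.

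The median log2 fold change of these 14 was 0.34, and 12 were above 0 (52.1% of all genes). mt-Tn, for asparagine, was at 34 to 66 fragments in IncPBF lungs and 13 to 48 in sham lungs (0.77, SE 0.30, limma adjusted p = 0.069). mt-Tw, for tryptophan, was at 19 to 49 and 14 to 30 fragments (0.62, SE 0.25, limma adjusted p = 0.082), and mt-Tl1, for leucine, at 33 to 66 and 18 to 42 (0.59, SE 0.25, limma adjusted p = 0.0977). mt-Tq, for glutamine, had the largest value of the 14 at 1.85 (SE 1.09, limma adjusted p = 0.22), resting on 1 to 10 and 0 to 5 fragments and moving to 0.77 with a pseudocount of 1 and 3.14 with a pseudocount of 0.01. The 2 below 0 were mt-Tg, for glycine, with 5 to 39 and 12 to 23 fragments (-0.20, limma adjusted p = 0.787), and mt-Ty, for tyrosine, with 26 to 60 and 31 to 51 (-0.08, limma adjusted p = 0.816). The direction of these was not settled, since the mean FPKM of mt-Tg was higher in IncPBF lungs (14.3 ± 10.7 against 13.3 ± 4.35, SD, n = 5 each) and mt-Ty was at 0.00 with equal totals. mt-Tm, at 0.02, had the lower mean in IncPBF lungs (2.33 ± 1.31 against 3.59 ± 2.22 FPKM, SD, n = 5 each) and was at -0.31 with a pseudocount of 1. mt-Tr, for arginine, held 13 to 24 and 9 to 25 fragments, and mt-Ts2, for serine, 19 to 35 and 14 to 26.

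**Figure D4:**
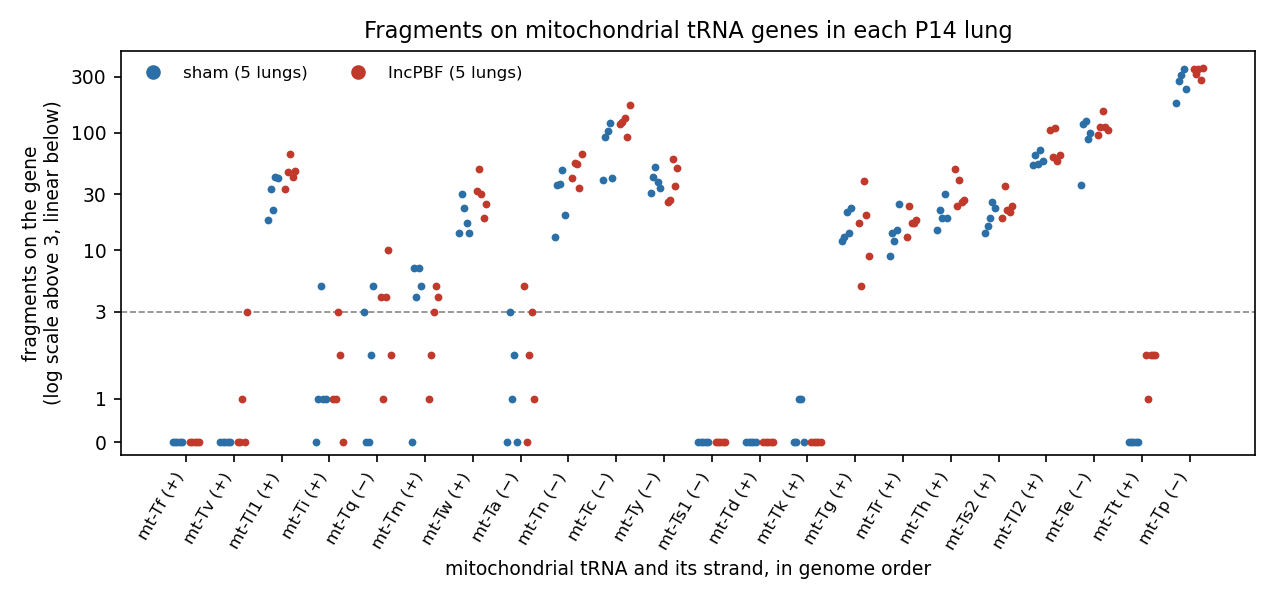
Fragments per lung on the 22 mitochondrial tRNA genes in genome order, with the strand after each name, on an axis that is logarithmic above 3 and linear below, 1 point per lung (sham blue, IncPBF red). The dashed line marks 3 fragments, above which mt-Tp is highest at 180 to 355 fragments, while mt-Tf, mt-Ts1 and mt-Td lie at 0.

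The nuclear genes that work with the mitochondrial genome were then read on the same scale, as lists of function. Of 81 nuclear subunits of oxidative phosphorylation, 38 were called higher and 0 lower, with a median log2 fold change of 0.24, beside 16.1% and 16.2% of all genes. The counts were 16 of 37 in complex I, 1 of 4 in complex II, 4 of 9 in complex III, 7 of 14 in complex IV and 10 of 17 in complex V. Among the complex I genes called, Ndufb1-ps, Ndufa5 and Ndufa2 rose most (0.49, 0.44 and 0.43, limma adjusted p = 0.0221, 0.0266 and 0.00232). Ndufa2 rose from 54.1 ± 5.28 to 73.0 ± 6.58 FPKM (SD, n = 5 each) with no overlap. Cox7c of complex IV rose from 34.5 ± 6.03 to 46.8 ± 4.84 FPKM (SD, n = 5 each, log2 fold change 0.45, limma adjusted p = 0.0124) with overlap. Uqcrq of complex III had a log2 fold change of 0.42, Atp5mpl of complex V 0.43 and Sdhc of complex II 0.22 (limma adjusted p = 0.00716, 0.00543 and 0.0088).

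The summed level of these 81 genes was 3402, 3467, 3457, 3764 and 3512 FPKM in IncPBF lungs 1 to 5 and 2677, 3291, 3231, 3196 and 2828 FPKM in sham lungs 1 to 5. The sums did not overlap, and sham lung 1 was lowest, as it was for the mitochondrial mRNAs. The summed FPKM of the mitochondrial mRNAs was 12740, 13870, 16933, 15977 and 14425 in IncPBF lungs and 9192, 12423, 12620, 13548 and 11111 in sham lungs. Whether nuclear and mitochondrial subunits differed in their response was not tested.

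**Figure D5:**
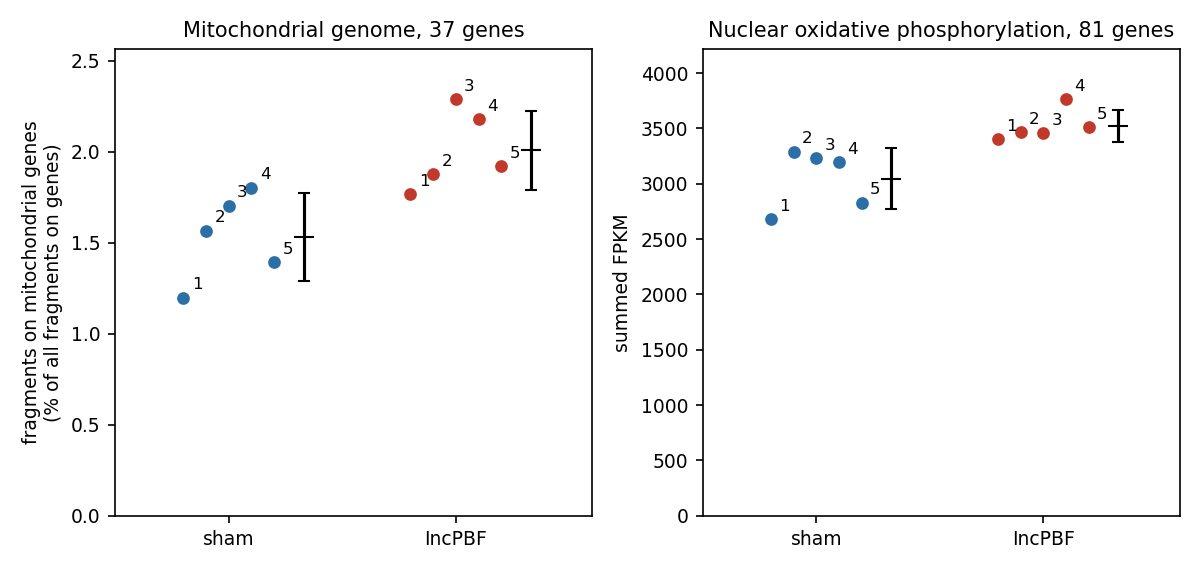
Share of fragments on the 37 mitochondrial genes (left, % of fragments on genes) and summed FPKM of 81 nuclear genes of oxidative phosphorylation (right), with 1 numbered point per lung and the mean ± SD beside each group. The mitochondrial shares overlap (1.77% to 2.29% in IncPBF and 1.20% to 1.80% in sham lungs), and the nuclear sums do not (lowest IncPBF 3402, highest sham 3291 FPKM).

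Of 77 proteins of the mitochondrial ribosome, 32 were called higher and 0 lower (median 0.22), beside 16.1% and 16.2% of all genes. Mrps6 rose most, from 5.36 ± 0.818 to 10.6 ± 0.609 FPKM (SD, n = 5 each, log2 fold change 0.98, SE 0.10, limma adjusted p = 5.46e-05). Of 21 genes used as markers of mitochondrial mass, 13 were called higher and 1 lower (median 0.19), beside the same shares of all genes. The largest were Timm23 of the inner membrane import channel (0.49, limma adjusted p = 0.0024), Phb, a scaffold protein of the inner membrane (0.34, limma adjusted p = 0.0092), and Vdac3 of the outer membrane (0.33, limma adjusted p = 0.00296). When Xist was a covariate, 2 genes of all 12 lists described here were called higher and 0 lower of 241, beside 2.13% of all genes higher, against 93 and 5 without it. When sham lung 5 was left out, 61 were called higher. The share of all genes called in that fit is not given here, so this count is not read as a result about the lists.

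The next lists hold genes that act on the mitochondrial genome and its RNA, and their counts stand beside 32.3% of all genes called in either direction. Of 10 genes of mitochondrial transcription, 0 were called in either direction, with a median log2 fold change of 0.05. Polrmt, the mitochondrial RNA polymerase, was at 4.23 ± 0.302 FPKM in IncPBF lungs and 4.88 ± 0.457 FPKM in sham lungs (-0.20, SE 0.08, limma adjusted p = 0.0695, unadjusted p = 0.0252). Tfam, which packages mitochondrial DNA and starts its transcription, was at 7.67 ± 0.473 and 6.73 ± 0.648 FPKM (0.19, SE 0.07, limma adjusted p = 0.0707). Lrpprc, which stabilises mitochondrial mRNAs, was at 3.97 ± 0.319 and 4.08 ± 0.456 FPKM (-0.04, limma adjusted p = 0.787).

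Of 15 genes of mitochondrial RNA stability and decay, 4 were called higher and 1 lower. Ptcd1 fell (-0.33, limma adjusted p = 0.011), and Rexo2, Ptcd3 and Pnpt1 rose (0.28, 0.27 and 0.24, limma adjusted p = 0.018, 0.0421 and 0.0363). Of 17 genes of RNA processing and modification 1 was called, Trit1, a tRNA-modifying enzyme (0.23, limma adjusted p = 0.0388). Of 12 genes of mitochondrial DNA replication and nucleotide supply, 2 rose and 2 fell. Polg, the catalytic subunit of the mitochondrial DNA polymerase, fell (-0.26, limma adjusted p = 0.0212), as did Slc25a33, a pyrimidine nucleotide carrier (-0.56, limma adjusted p = 0.00825), while Ssbp1 (0.31, limma adjusted p = 0.045) and Mgme1 (0.21, limma adjusted p = 0.031) rose. Of 8 regulators of mitochondrial biogenesis, 3 rose and 1 fell, with Pprc1 the largest (0.52, limma adjusted p = 0.00563).

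Markers of other tissues that a dissected lung could hold were summed in each lung. Their counts stand beside 16.1% of all genes called higher, 16.2% called lower and 52.1% above 0. The summed level of 10 cardiac muscle markers was 33.9 to 102.8 FPKM in IncPBF lungs and 8.88 to 47.7 FPKM in sham lungs, with 0 of 6 tested called and 6 of 6 above 0 (median log2 fold change 0.66). Actc1 supplied most of it, Myl7, a myosin light chain of the atrium, averaged 4.73 ± 5.92 and 0.84 ± 0.692 FPKM, and Myh6, a defining marker of cardiac muscle, 1.01 ± 1.36 and 0.318 ± 0.152 FPKM (SD, n = 5 each). Myh6 ran from 0 to 2.58 FPKM among IncPBF lungs, and its log2 fold change was 0.01 (limma adjusted p = 0.993). Skeletal muscle markers summed to 2.17 to 12.6 and 1.86 to 2.74 FPKM, with 0 of 3 tested called and 3 of 3 above 0 (median 1.17). Brown fat markers summed to 2.13 to 4.46 and 1.87 to 5.31 FPKM, with 0 of 2 tested called, 1 of 2 above 0 (median -0.17) and 1 marker at 0 in every lung. Erythroid markers, 7 in number, summed to 253 to 1931 FPKM in IncPBF lungs and 1466 to 2450 FPKM in sham lungs, and 5 of the 7 were called lower. Of the 9 lung markers 6 were called lower. The part of these tissues in the mitochondrial values was not tested.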

How the data were processed

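Whole-lung RNA from 5 IncPBF and 5 sham lungs was sequenced. The authors deposited the values as FPKM with each gene's length. The submitters' processing notes name Bowtie 0.12.2 and the builds hg38, GRCm38 and mm10 without giving their roles. The counting software, the strand setting and the treatment of fragments with several matches are not given in the sources used here. The column names of IncPBF lungs differ from the titles of the samples, so these columns were placed in the group without matching single samples, and lung numbers are only names.

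Multiplying FPKM by gene length gave whole numbers of fragments after division by the worth of 1 fragment in that lung. They were whole within 0.02, with a margin that widened with the count for the most abundant genes, such as mt-Co1. Such counts cover counting error only. Groups were compared with limma 3.58.1 in R 4.3.3 (lmFit, eBayes with trend) on log2(FPKM + 0.1) over 15388 genes with a mean of at least 0.5 FPKM, using Benjamini-Hochberg adjustment and a threshold of 0.05. On simulated data with 195 changed genes among 15245, the test recovered 89.8% of log2 changes of 1 and 25.8% of log2 changes of 0.5, with 4 false calls. The simulated counts were independent between genes and had the same dispersion for every gene. In the lungs 32.3% of genes were called, a far larger part than was changed in the simulation, so these rates need not hold there. Copies were found by exact windows of 100 bases and ungapped alignment of GENCODE M21 transcripts. Anticodons were located as the known triplet in a loop closed by a paired stem. Other software was Python 3.11.15 with pandas 2.3.3 for tables and matplotlib 3.10.9 for plots.

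All 37 members were described. Of each nuclear list, up to 4 of the genes with the largest changes past the threshold were named, starting from the largest, with Polrmt, Tfam and Lrpprc whatever their values. Members and lists were chosen with earlier results of these data known. Alternatives covered the pseudocount, the filter, the scaling, a replicate block, the variance trend, Xist as a covariate, limma-voom on recovered fragments, and each lung left out. Summing a gene with its copy was added after the data were seen. No sequence of the genome between genes and no protein sequence was used.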

Additional observations from a re-analysis of the deposited data

Results flagged for a closer look

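Among the 37 genes and the chromosome 1 copies, 36 measures in 72 groups of 5 lungs were checked for a single lung far from the others (a gap to the nearest lung above 0.71 of the group's range). Chance flags about 1 in 20 such groups, and 6 were found. Among IncPBF lungs, number 1 was lowest for mt-Rnr1, at 164.2 FPKM with the next at 195.8. Among sham lungs, number 1 was lowest for mt-Rnr2, at 169.4 FPKM with the next at 224.5, for mt-Nd4l, at 9.942 FPKM with the next at 17.21, and for Gm10222, the chromosome 1 copy of mt-Nd4l, at 4.359 FPKM with the next at 10.94. mt-Co2 was at 159.6 FPKM in IncPBF lung 5 with the next at 69.73. mt-Ts2, a serine tRNA, was at 31.65 FPKM in IncPBF lung 2 with the next at 20.63.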

How the results depend on the processing

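The direction of the 12 tested mRNAs held in every alternative except Xist as a covariate, where mt-Nd6 turned in a fit that rests almost wholly on IncPBF lung 1 for its group, but the number called did not hold. From 1 mRNA called, the count went to 3 with a filter of at least 1 FPKM or without the variance trend. It went to 0 with no filter or with the Xist covariate and to 5 with either equal total. Quantile normalization gave 4 and limma-voom on fragments 8. The shares of all genes called higher were 23.1% with equal totals, 16.6% with quantile normalization, 23.7% with limma-voom and 2.13% with the Xist covariate. For the other filters, the fit without the variance trend and 1 lung left out, these shares are not given here. The counts under those settings, for the members and the nuclear lists, are therefore not read as results about these genes. With 1 lung left out the count of mRNAs ran from 0 to 4. These were mt-Nd1, mt-Nd4 and mt-Nd5 without IncPBF lung 1, mt-Nd4 and mt-Nd5 without sham lung 2, mt-Co3 and mt-Nd4 without sham lung 3, mt-Cytb, mt-Nd1, mt-Nd3 and mt-Nd4 without sham lung 4, and 0 without any other lung. For the rRNAs, 0 became 1 (mt-Rnr1) with either equal total and with limma-voom, and 0 to 1 with 1 lung left out. Without sham lung 1 mt-Rnr2 was at -0.05. For the tRNAs, 2 (mt-Th, and mt-Tt at the floor) became 1 with pseudocount 0.01, either other filter, no trend or the Xist covariate. The 1 left was mt-Th with the filter of at least 1 FPKM and mt-Tt in the rest. The count was 4 with quantile normalization or equal totals outside the mitochondrial genome. It was 1 to 5 with 1 lung left out (5 without sham lung 4). With limma-voom 3 were called (mt-Tc, mt-Tn and mt-Tt), and mt-Th was not (adjusted p = 0.0661). Of the nuclear lists, 93 higher became 32 with no filter and 2 with the Xist covariate. With 1 lung left out this count ran from 55 (without IncPBF lung 4) to 96, with 61 without sham lung 5. The 5 lower became 3 with no filter, either equal total or limma-voom, and 0 with the Xist covariate. The share of mt-Co1 among mRNAs, with a sham median of 37.6% by FPKM, was 46.0% by fragments, which weights longer genes. Summing each gene with its copy, chosen after seeing the data, left 1 mRNA called. Equal totals moved the median of all genes from 0.01 to 0.09. Why the other counts moved was not tested.

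Over all genes tested, same-numbered lungs of the 2 groups did not deviate together (correlations of -0.07 to 0.09). These correlations do not cover the members apart. In mt-Nd1 and mt-Cytb lung 1 was the lowest of both groups, so whether the numbers pair the lungs for the members was not settled. With the replicate block 7 mRNAs, 1 rRNA and 2 tRNAs (mt-Tt and mt-Tw, not mt-Th, limma adjusted p = 0.0966) were called, beside 15.5% of all genes higher, and lungs numbered 2 and 5 matched their own number best, a hint from the data only.

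FPKM of tRNAs rest on 0 to 355 fragments, and no fold is given for those at the floor.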
